A study of Mus musculus with 4 samples.

Results

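Immediate early and AP-1 genes were followed across the leukocyte classes of mouse blood. The set holds 10 genes of the 32287 listed features, chosen by symbol: Jun, Junb, Jund, Fos, Fosb, Egr1, Dusp1, Zfp36, Nr4a1 and Cd69. All 10 were found in every library, with between 706 unique molecular identifiers (UMIs, each tagging 1 captured RNA molecule) for Egr1 and 37366 for Junb. Blood leukocytes came from immunocompetent C57BL/6J mice, 10 weeks old, that carried acute lymphoblastic leukaemia (ALL) and had been on dasatinib, a tyrosine kinase inhibitor, for 1 week. At sampling all mice were in remission, and dasatinib went on for 4 further weeks. The Relapsed group (6 mice) and the Cured group (6 mice) were assigned afterwards, from the state of each mouse at day 100 after inoculation, so neither group is an untreated or leukaemia-free control. Cells were frozen, thawed and sorted for live cells, and each 10x Genomics 5′ library pooled 3 mice, which gave 2 Relapsed and 2 Cured libraries. No cell could be traced to a mouse, so the pool was the replicate. P-values between groups measure the spread between pools, and those between classes the spread of class differences across pools. The study asked what in the host immune response set mice that relapsed apart from mice that did not.

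Immediate early genes are transcribed within minutes of a signal from a receptor or a stress, without new protein synthesis. Jun and Fos proteins pair through leucine zippers into AP-1, a transcription factor that carries the signal on to later genes. Egr1 and Nr4a1 are further signal-induced transcription factors, and Nr4a1 is required for the survival of mouse non-classical (Ly6C-low) monocytes. Dusp1 removes phosphate from MAP kinases, and Zfp36 (tristetraprolin) speeds the decay of AU-rich messenger RNAs, so both limit the response. Cd69 is a membrane protein that appears early on activated lymphocytes and removes the exit receptor S1pr1 from the cell surface. The same genes are known to be switched on while tissue is handled, and all libraries here were frozen and thawed.

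The promoters of 4 members are shown as examples. They run 5′ to 3′ on the gene's strand from RefSeq on GRCm38.p6, up to the base before the annotated start, except for Dusp1, where the window ends 51 bases before it. Capitals mark TGACG, the core of a cyclic AMP response element, read as CGTCA where it lies on the other strand, and TATAAA in Fos. The windows are Fos at chr12:85473640-85473889 (+ strand), Junb at chr8:84978749-84978998 (- strand), Nr4a1 at chr15:101266596-101266845 (+ strand) and Dusp1 at chr17:26508523-26508722 (- strand).
Fos: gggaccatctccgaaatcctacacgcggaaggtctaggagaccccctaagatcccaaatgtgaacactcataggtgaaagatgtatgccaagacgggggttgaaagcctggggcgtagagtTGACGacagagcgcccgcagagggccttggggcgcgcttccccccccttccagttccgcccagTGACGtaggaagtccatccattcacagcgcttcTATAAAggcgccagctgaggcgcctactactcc
Junb: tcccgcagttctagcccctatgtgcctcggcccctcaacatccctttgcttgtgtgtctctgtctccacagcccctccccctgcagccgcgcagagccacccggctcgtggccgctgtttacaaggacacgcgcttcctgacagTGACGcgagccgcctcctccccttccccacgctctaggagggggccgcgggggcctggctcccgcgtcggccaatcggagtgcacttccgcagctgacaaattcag
Nr4a1: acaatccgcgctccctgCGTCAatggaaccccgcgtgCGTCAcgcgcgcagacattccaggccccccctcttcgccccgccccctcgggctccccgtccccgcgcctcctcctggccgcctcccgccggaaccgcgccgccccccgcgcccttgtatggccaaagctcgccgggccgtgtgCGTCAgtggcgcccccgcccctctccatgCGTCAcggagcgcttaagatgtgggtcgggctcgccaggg
Dusp1: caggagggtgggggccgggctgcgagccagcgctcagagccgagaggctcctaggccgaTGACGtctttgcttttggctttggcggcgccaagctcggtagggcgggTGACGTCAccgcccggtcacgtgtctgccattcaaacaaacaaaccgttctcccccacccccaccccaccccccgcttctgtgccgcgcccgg

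Promoter windows were found for 8 of the 10 members. TGACG on either strand stood in 5 of those 8 (Junb, Fos, Fosb, Dusp1 and Nr4a1), against 17.9% of 27025 promoters of the same length. Nr4a1 held 4 copies, all on the other strand, and Fos held 2. In Dusp1, 2 of the 3 copies overlap within the full palindrome TGACGTCA, which 1.62% of promoters contain. TATAAA was found in Fos alone among the members, and in 13% of promoters. GCGGGGGCG, the letters bound by Egr1, was found in Fosb, Zfp36 and Nr4a1, and in 2.56% of promoters. The AP-1 site TGANTCA was in none of the 8 windows and in 6.87% of promoters. The Zfp36 window held a CArG box, the letters bound by serum response factor, which 1.40% of promoters contain. These matches describe letters in a window and not bound sites.

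The 4 libraries held between 3631 and 4383 barcodes and between 7184045 and 10840397 UMIs, lowest in Relapsed replicate 1. After filtering, 15439 cells were kept and 14424 fell into 7 classes by marker genes: 11301 B cells, 149 CD4 T cells, 879 CD8 T cells, 780 natural killer (NK) cells, 93 classical monocytes, 216 non-classical monocytes and 1006 neutrophils. No member was used as a marker. Every class had UMIs of its own defining markers in each library, which its gate requires. The 8 neutrophil markers summed to between 193258 and 239904 CPM in neutrophils. The B class held the 6 monocyte markers at 519 to 621 CPM summed and the neutrophil class at 2358 to 2553 CPM. In each, 1 of the 6 was in at least 10% of cells. The 6 classical monocyte markers summed to between 791 and 1156 CPM in CD8 T cells and between 1232 and 1807 CPM in NK cells. The part of such markers of other classes in the results was not tested. CPM, the usual unit scaled for depth, is the gene's UMIs over all UMIs of the class in that library, on the standard CPM scale. Median depth was between 910 and 1112 UMIs per neutrophil, between 1841 and 2340.5 per B cell and between 4588 and 5256.5 per classical monocyte. Pairs of libraries shared between 20 and 29 barcodes, at most 0.677% of the smaller library. Relapsed replicate 1 stood apart, with 280 barcodes dominated by haemoglobin. Of these, 277 had fewer than 200 genes, against 23 to 28 such barcodes in the other libraries. Neutrophils made up 11.7% of the kept cells of Relapsed replicate 1, against 4.12% in Relapsed replicate 2. In Cured replicates 1 and 2 they made up 6.38% and 5.0%. The class sum of classical monocytes in Cured replicate 1 held 10 cells and was left out of all fits, so that class has 3 libraries in the class contrasts and no test between groups.

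The myeloid classes carried more of these genes in CPM than the lymphoid classes. In neutrophils 9 of the 10 members were higher than in the mean of the other classes, with Dusp1 (log2 fold change 4.47), Zfp36 (3.05) and Fos (3.04) in front, and Cd69 alone was not called. In classical monocytes 8 were higher and 2 (Jund, Cd69) were lower, and in non-classical monocytes 7 were higher and Cd69 was lower. In CD8 T cells 9 were lower and only Cd69 was higher, in CD4 T cells 8 were lower and Cd69 was higher, and in NK cells 8 were lower and none was higher. B cells lay between, with Jund and Cd69 higher and Fos, Egr1, Dusp1 and Nr4a1 lower. For Cd69 the mean of the other classes includes classical and non-classical monocytes, which held 7 and 3 Cd69 UMIs. In CPM, CD4 T cells lay below B and CD8 T cells for Cd69, at a mean of 96.1 against 238 and 142 CPM. Leaving out 1 library moved some of the counts of members called. Without Cured replicate 1, 4 members were higher in B cells (46.5% of all genes in that fit) and none in CD4 T cells (10.2%). Without Cured replicate 2, 4 were higher in non-classical monocytes (17.3%), 1 was lower in classical monocytes (6.02%) and none was higher in CD4 T cells (8.5%). Without Relapsed replicate 2, 1 was higher in NK cells (21.7%) and 1 lower in classical monocytes (5.62%).

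These calls come from edgeR's quasi-likelihood test on class sums, with the library as a block and p-values adjusted by Benjamini-Hochberg over 5494 genes at a threshold of 0.05. Over all 5494 genes, calls were common. Genes called higher made up 36.6% in neutrophils, 22.1% in classical and 21.4% in non-classical monocytes, 48.2% in B cells, 12.4% in CD4 T cells, 33.9% in CD8 T cells and 25.3% in NK cells. Genes called lower made up 31.6%, 9.5%, 10.6%, 15.9%, 14.1%, 16.5% and 17% of those tested in the same 7 classes, in that order. The median log2 fold change of the members was 2.40 in neutrophils, 1.16 in classical and 0.55 in non-classical monocytes, 0.04 in B cells, -1.41 in CD4 T cells, -1.44 in CD8 T cells and -1.06 in NK cells. The median over all genes tested was 0.03, 0.02 and -0.01 in the 3 myeloid classes, 0.28 in B cells, -0.23 in CD4 T cells, 0.11 in CD8 T cells and 0.04 in NK cells.

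**Figure D1:**
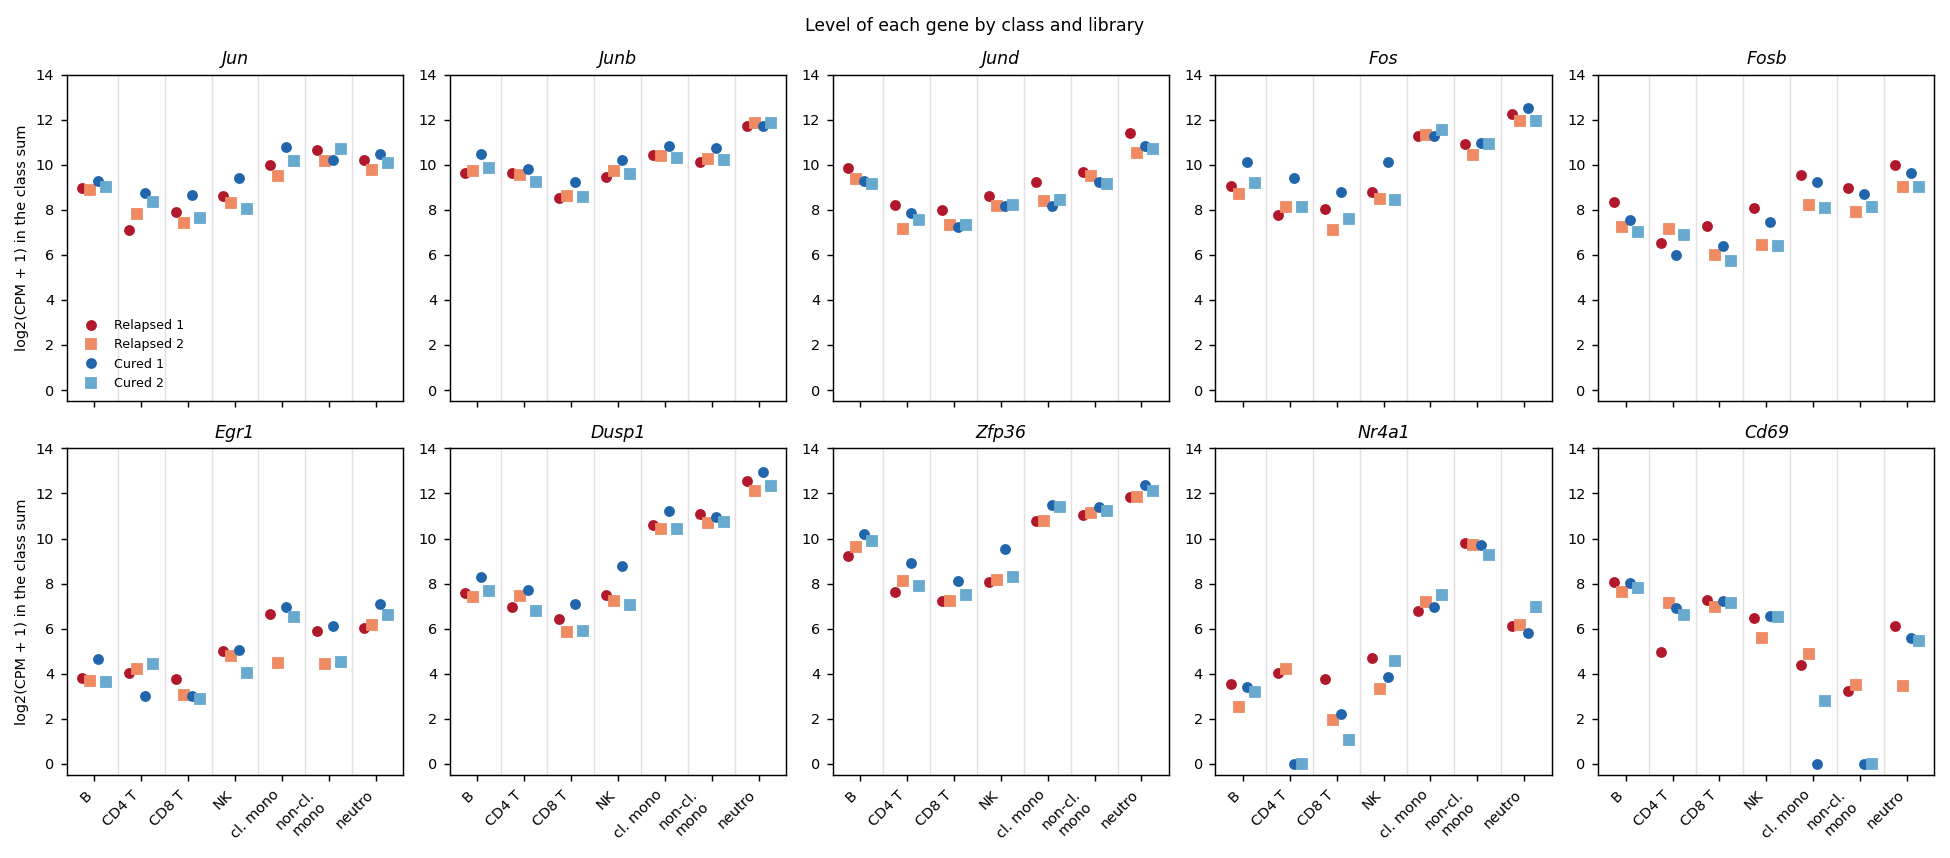
Level of each of the 10 genes as log2(CPM + 1) on the vertical axis, by leukocyte class on the horizontal axis, with 1 point per library (2 Relapsed, then 2 Cured). Dusp1 in neutrophils lies between 4396 and 7900.3 CPM, and Nr4a1 in non-classical monocytes between 613 and 899.6 CPM.

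Depth per cell differs between the classes, and some calls moved with the scaling. Against the TMM factors used here, scaling the sums by their totals shifted the median of all genes by -0.43 log2 in neutrophils and -0.44 in CD8 T cells, and by 0.42 in NK cells. Scaling by the number of cells shifted it by -1.76 in neutrophils and by 1.36 in classical monocytes. Genes called higher made up 53.7% of all calls in neutrophils with TMM factors, 41.3% by totals and 16.7% per cell. In B cells the same share was 75.2%, 57.4% and 41.6%, in CD8 T cells 67.2%, 34.8% and 79.6%, in CD4 T cells 47.0%, 56.5% and 66.2%, and in NK cells 59.8%, 86.0% and 59.5%. It was 69.9%, 81.3% and 98.3% in classical and 66.9%, 87.2% and 88% in non-classical monocytes.

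Per cell, 7 members were still higher in neutrophils (Dusp1 2.69, Fos 1.28, Zfp36 1.28, Jund 1.03, Junb 0.66, Egr1 0.60 and Fosb 0.57 on the log2 scale). Cd69 was lower there at -1.65, Nr4a1 was at 0.17 without a call, and Jun turned to -0.31, also without a call. In classical monocytes per cell 9 were higher and none was lower, and Jund turned to 0.94 against -0.42 with TMM factors. In B cells 7 were lower per cell, where Jun, Junb and Fosb had small positive values without a call before. In UMIs per cell classical monocytes, the deepest class, were first for Jun, Junb, Fos, Fosb, Egr1, Dusp1 and Zfp36, for Fos at a mean of 12.9 UMIs per cell against 5.11 in neutrophils. The T and NK cell counts did not move between TMM factors and cell numbers.

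Jun, which pairs with Fos in AP-1, was highest in CPM in non-classical monocytes. There it had 1616 and 1129 CPM in Relapsed and 1174 and 1639 CPM in Cured libraries, a mean of 1389 ± 275 CPM (SD, n = 4). Neutrophils followed at 1128 ± 221 CPM. With TMM factors the estimate had the opposite sign, at a log2 fold change of -0.28 for non-classical monocytes over neutrophils. It did not pass the test (adjusted p = 0.278, edgeR). CD8 T cells were lowest, with 240.1 and 170.1 CPM in Relapsed and 398 and 198 CPM in Cured libraries. Those 4 values overlapped with the 138 to 433 CPM of CD4 T cells. With TMM factors the log2 fold change of CD4 over CD8 T cells was -0.21. That pair did not pass the test either (adjusted p = 0.820, edgeR). Jun lies on chromosome 4 and overlaps the antisense gene Junos, so reads of that pair are uncertain without a stated strand rule.

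Junb, which binds AP-1 sites and also restrains Jun, had 3355 and 3676 CPM in Relapsed and 3402 and 3723 CPM in Cured neutrophils. The 4 neutrophil libraries were close together, at 3539 ± 188 CPM, and every one lay above the highest library of the next class, classical monocytes at 1819.8 CPM in Cured replicate 1, from 10 cells. Neutrophils exceeded classical monocytes by 1.85 log2 (SE 0.11, adjusted p = 5.82e-38, edgeR). In B cells Junb had 789 and 839 CPM in Relapsed and 1429 and 929 CPM in Cured libraries, with Cured replicate 1 far above the other libraries. CD8 T cells were lowest at 434 ± 109 CPM. Junb overlaps Prdx2 on the other strand.

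Jund, the Jun protein known for steady expression in resting cells, was the only Jun or Fos gene of the set called higher in B cells against the rest. B cells had 932 and 659 CPM in Relapsed and 614 and 562 CPM in Cured libraries, so both Relapsed libraries lay above both Cured ones. Neutrophils were highest, with 2736 and 1489 CPM in Relapsed and 1843 and 1645 CPM in Cured libraries. Relapsed replicate 1 was the highest library for Jund in all 7 classes. In that library 280 haemoglobin-dominated barcodes held Jund in 13.2%, at 1123 CPM of their UMIs that were not haemoglobin. The other members were in 0.0% (Egr1) to 3.21% (Fos) of them. The part of such RNA in the Jund levels was not tested. CD8 T cells were lowest at 179.8 ± 48.7 CPM (n = 4), beside CD4 T cells at 211 ± 65.0 CPM. With TMM factors the log2 fold change of CD4 over CD8 T cells was -0.19, and the test did not separate them (adjusted p = 0.639, edgeR). Jund overlaps the antisense gene Gm11175.

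Fos, the partner of Jun in AP-1, was graded in CPM from neutrophils down to T cells. It had 4822 and 3931 CPM in Relapsed and 5907 and 3911 CPM in Cured neutrophils. Classical monocytes followed with 2476 and 2541 CPM in Relapsed and 2502 (from 10 cells) and 3005 CPM in Cured libraries, and non-classical monocytes with 1932 and 1391 CPM against 2003 and 1904 CPM. Each of the first 4 steps in that order passed the test, with adjusted p between 0.000272 and 0.0112 (edgeR). B cells had 523 and 421 CPM in Relapsed and 1102 and 589 CPM in Cured libraries. In lymphoid cells 1 library, Cured replicate 1, was far from the rest: in NK cells it had 1125 CPM, and the other 3 had between 345 and 437 CPM.

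Fosb, a further Fos protein, had 1026 and 509 CPM in Relapsed and 781 and 510.0 CPM in Cured neutrophils, and was lowest in CD8 T cells at 88.1 ± 47.2 CPM (n = 4). B cells had 321 and 149 CPM in Relapsed and 183 and 129 CPM in Cured libraries. Relapsed replicate 1 was highest in 6 of 7 classes, at a median of 2.16 times Relapsed replicate 2. Between classical monocytes, non-classical monocytes and B cells the neighbouring levels did not pass the test (adjusted p = 0.083 and 0.0744, edgeR).

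Egr1, a zinc finger transcription factor, was sparse, with 604 UMIs in the 7 classes together. Neutrophils had 65.3 and 69.9 CPM in Relapsed and 134 and 95.9 CPM in Cured libraries, and both Relapsed libraries lay below both Cured ones, as did 15% of all genes there. Classical monocytes were next at 69.8 ± 42.2 CPM (n = 3), and the test did not separate them from neutrophils (adjusted p = 0.0959, edgeR). No pair of neighbouring classes passed the test for Egr1. CD8 T cells had 26 UMIs, or 8.35 ± 2.76 CPM (n = 4).

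Nr4a1, an orphan nuclear receptor, was concentrated in non-classical monocytes. They had 899.6 and 837 CPM in Relapsed and 852 and 613 CPM in Cured libraries, a mean of 800.3 ± 128 CPM (SD, n = 4). They held 51.3% of all Nr4a1 UMIs of the 7 classes, with 216 of 14424 cells. Classical monocytes had 143 ± 35.8 CPM (n = 3), and the difference of 2.24 log2 (SE 0.22) gave an adjusted p of 6.82e-14 (edgeR). At 1000 UMIs per cell, Nr4a1 was detected in 25 of 48 and 38 of 76 non-classical monocytes in Relapsed and 10 of 20 and 25 of 56 in Cured libraries (unthinned 75.5% and 80.0%, against 77.3% and 77.0%). B cells had 0.743% and 0.415% in Relapsed and 1.02% and 0.851% in Cured libraries. Barcodes dominated by haemoglobin are set beside these as a comparison, and whether their other UMIs are background was not tested. The 280 such barcodes of Relapsed replicate 1 had a median of 1150 UMIs, of which 104 were not haemoglobin. They held Nr4a1 in 0.714% (95% exact interval 0.0866 to 2.56). CD8 T cells had 1 of 164 and 1 of 195 in Relapsed and 0 of 278 and 0 of 230 in Cured libraries (95% exact upper limits of 1.32% and 1.59% for the zeros), and NK cells 1.23% and 0.926% against 0.641% and 1.74%. Unthinned, NK cells had 1.58% and 0.855% in Relapsed and 2.96% and 2.67% in Cured libraries. The haemoglobin-dominated barcodes come from 1 library and hold fewer other UMIs than these cells, so background and low expression in lymphoid cells cannot be told apart.

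Dusp1, the MAP kinase phosphatase, had the largest class contrast among the members in neutrophils. Neutrophils had 6101 and 4396 CPM in Relapsed and 7900.3 and 5154 CPM in Cured libraries, and the log2 fold change against the other classes was 4.47 (SE 0.09, adjusted p = 1.39e-28, edgeR). They held 45.4% of its UMIs in the 7 classes, with 1006 of 14424 cells. At 1000 UMIs per cell 96.0% and 95.3% of Relapsed and 99.0% and 95.8% of Cured neutrophils carried it (unthinned 97.4% and 97.2%, against 99.6% and 99.0%), beside 1.43% of the haemoglobin-dominated barcodes. The lowest neutrophil library was above every library of every other class. B cells had 191 and 169 CPM in Relapsed and 309.5 and 200.1 CPM in Cured libraries, and CD8 T cells were lowest at 84.2 ± 37.4 CPM. NK cells had a mean of 226 CPM, set by 442 CPM in Cured replicate 1, and B cells one of 217 CPM, but with TMM factors NK cells were 0.55 log2 below B cells (adjusted p = 0.00402, edgeR). The annotated Dusp1 span overlaps 2 genes on its own strand and 2 on the other, so reads shared with them are uncertain.

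Zfp36, the RNA decay factor, was high in the 3 myeloid classes. Neutrophils had 3668 and 3691 CPM in Relapsed and 5323 and 4398 CPM in Cured libraries. Non-classical monocytes had 2132 and 2228 CPM in Relapsed and 2739 and 2398 CPM in Cured libraries, and classical monocytes 1759 and 1751 CPM against 2895 and 2712 CPM, the 2895 CPM from 10 cells. In B cells the values were 595 and 795 CPM in Relapsed and 1177 and 939 CPM in Cured libraries. Both Relapsed libraries lay below both Cured libraries in each of these 4 classes, as did 15% of all genes in neutrophils, 14.7% in non-classical and 14.3% in classical monocytes and 23.1% in B cells. CD8 T cells were lowest at 188 ± 61.4 CPM beside CD4 T cells at 298 ± 123 CPM, and the test did not separate them (adjusted p = 0.805, edgeR). Zfp36 overlaps the antisense gene Gm44710.

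Cd69, the activation antigen, ran the other way. B cells had 271 and 196 CPM in Relapsed and 258 and 226 CPM in Cured libraries, and CD8 T cells 153 and 124 CPM in Relapsed and 151 and 140.1 CPM in Cured libraries. B cells held 89.5% of its UMIs in the 7 classes and exceeded CD8 T cells by 0.60 log2 (SE 0.10, adjusted p = 1.48e-08, edgeR). In non-classical monocytes the 4 libraries held 1, 2, 0 and 0 UMIs in the order Relapsed 1, Relapsed 2, Cured 1 and Cured 2, and none of the 200 cells with 1000 UMIs carried it after thinning. At 1000 UMIs per cell 22.6% and 16.7% of Relapsed and 21.1% and 18.8% of Cured B cells carried Cd69 (unthinned 36.6% and 30.5%, against 39.4% and 36.7%), beside 0.714% of haemoglobin-dominated barcodes. The share of CD8 T cells was 12.2% and 10.8% in Relapsed and 9.35% and 10.4% in Cured libraries, and the groups overlapped.

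**Figure D2:**
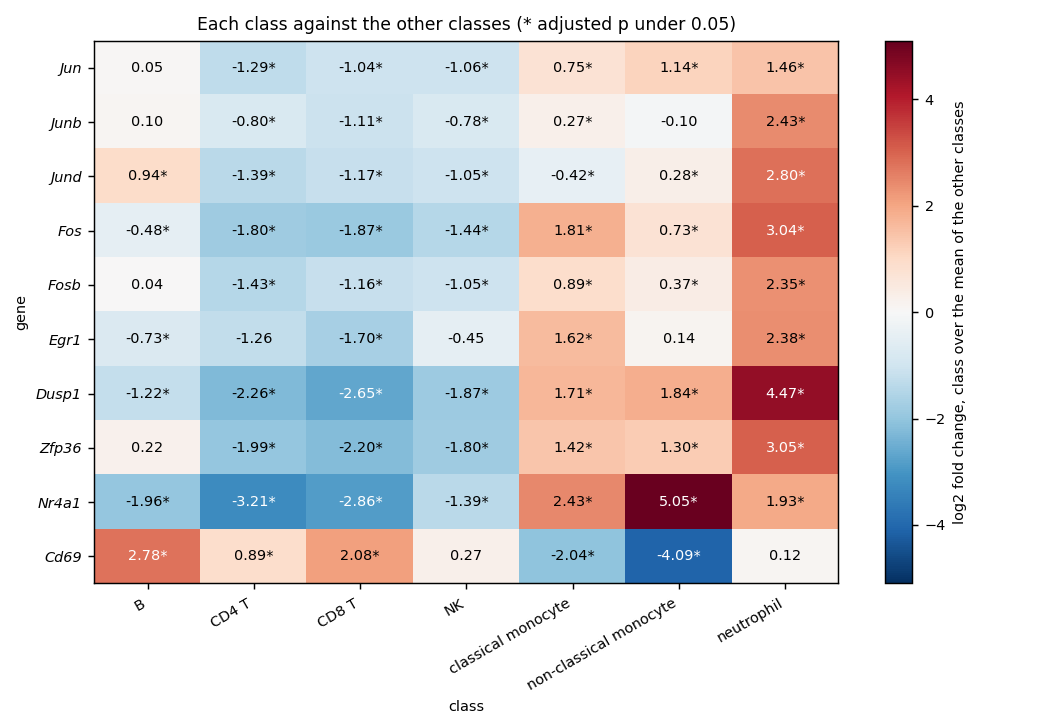
Log2 fold change of each of the 10 genes (rows) in each leukocyte class (columns) against the mean of the other classes, from edgeR with TMM factors, red for higher and blue for lower, with an asterisk at an adjusted p under 0.05. Neutrophils are positive for all 10, with Dusp1 at 4.47, and Nr4a1 stands at 5.05 in non-classical monocytes. Scaling per cell turns Jun in neutrophils to -0.31 and Jund in classical monocytes to 0.94.

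Ordering the 7 classes by mean CPM gave 60 neighbouring pairs over the 10 members. Of these, 26 differed in the direction of the order, 33 did not pass the test, and 1 (Dusp1 in NK and B cells) passed in the opposite direction. Over the 22 pairs of classes involved, between 0.601% and 35.9% of all genes were called in the same direction. B cells exceeded NK cells for all 5 members for which they were neighbours in that order (Jun, Junb, Fos, Fosb and Zfp36), where 35.4% of genes were called. Of 3 members with B above CD4 T cells, Dusp1 passed (24.0% of genes), of 3 with NK above B cells none passed in that direction (19.3%), and Cd69 did not pass between CD4 T and NK cells (8.39%). The test separated CD4 and CD8 T cells for none of the 9 members for which they were the lowest pair, and they were the 2 lowest classes for all members other than Cd69.

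Other genes of the same pathways are given by list, to be read beside the shares of all genes called in each class given above. Of 12 further AP-1 partners 7 were tested. In neutrophils 5 were higher and none was lower, led by Fosl2 (5.88), a Fos family protein, Atf3 (5.72), a stress-induced factor, Mafg (2.98) and Batf (1.07), with a list median of 1.60 against 0.03 for all genes. In non-classical monocytes 4 were higher (Batf3 4.53, Atf3 4.32, Fosl2 3.36, Mafg 1.18) and in classical monocytes 3 (Batf3 7.27, Atf3 5.75, Fosl2 3.08), with none lower in either. B cells had 1 higher (Atf4 0.90) and 2 lower (Mafg -0.62, Maf -1.24). CD4 T cells had Maf higher at 2.75, and Fosl2 and Atf3 without a UMI there. NK cells had Maf higher at 0.86 and Atf4 and Mafg lower, and CD8 T cells had Atf4, Mafg and Maf lower with none higher.

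Of 32 further immediate early and feedback genes 28 were tested. In neutrophils 21 were higher and 3 lower, with a median of 2.25: Trib1 (7.54), a pseudokinase, Rgs2 (4.21), which dampens G protein signals, Ier5 and Btg1 (2.30) were higher, and Dusp2 (-1.60), Klf4 (-2.25) and Nr4a2 (-3.47) were lower. In non-classical monocytes 15 were higher, among them Sik1 (3.97), Klf4 (3.77), a factor of monocyte differentiation, and Dusp5 (2.86), and Btg1 (-0.34) and Gadd45b (-0.71) were lower. In classical monocytes 11 were higher and 4 lower. B cells had 9 higher, with Myc (3.60) and Zfp36l1 (1.98), a relative of Zfp36, and 14 lower, with Socs3 (-3.03) and Rgs1 (-2.62). NK cells had 9 higher, with the chemokine Ccl3 (3.18), Rgs1 (2.91), Nr4a2 (2.82) and Dusp2 (1.84), and 13 lower. In CD8 T cells 4 were higher, led by Myc (4.35), and 14 lower, and in CD4 T cells 1 (Myc, 2.88) was higher and 14 were lower.

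Of 22 kinases and factors upstream of these genes 16 were tested, and 9 were higher and 1 (Elk3, -1.87) lower in neutrophils, with Braf (2.96), Mapk3 (2.63) and Mapk14 (2.06) as examples. The list median was 0.82 in neutrophils, 0.77 in non-classical and 0.14 in classical monocytes, 0.27 in B cells, 0.11 in NK cells, -0.45 in CD8 T cells and -0.93 in CD4 T cells. Over all genes it was 0.03, -0.01, 0.02, 0.28, 0.04, 0.11 and -0.23 in the same order, so in B cells the list lay beside all genes. Non-classical monocytes had 9 higher and none lower, with Mapkapk2 (2.99) and Mapk3 (2.14), and B cells had 7 higher (Map3k8 1.39, Map3k1 1.27) and 4 lower (Rps6ka1 -2.06, Mapk3 -1.60). Classical monocytes had 2 higher and 1 lower with 13 not called, where 22.1% of all genes were higher, NK cells 3 and 3, CD8 T cells 2 and 6, and CD4 T cells 0 and 6. Of 6 genes of lymphocyte exit and homing, set beside Cd69, B cells had 5 higher, with Ccr7 (5.54) and S1pr1 (3.61), and S1pr5 lower. CD8 T cells had 4 higher and 2 lower, with S1pr1 at 4.23, and CD4 T cells had 3 and 1. NK cells had 3 higher, with S1pr5 at 5.12, and Klf2 lower at -0.72. Neutrophils had Klf2 higher (2.22) and S1pr4 lower, and both monocyte classes had S1pr5 higher and 3 lower. The median of these 6 genes was 1.45 in B cells, 1.11 in CD8 T cells, 0.41 in CD4 T cells, 0.90 in NK cells, -0.995 in neutrophils, -1.42 in classical and -2.31 in non-classical monocytes. Of 13 heat shock and stress genes 10 were tested, with 2 higher (Dnajb1 0.93, Hspa5 0.61) and 5 lower in neutrophils, among them Hsp90ab1 (-2.97) and Hspe1 (-3.50). B cells had 6 and 4, CD8 T and NK cells 6 and 1 each, CD4 T cells and non-classical monocytes 2 and 2 each, and classical monocytes 2 and 1. The median of these 10 genes was -0.95 in neutrophils, 0.25 in B cells, 0.69 in CD8 T cells, 0.28 in NK cells, 0.14 in CD4 T cells, -0.07 in non-classical and 0.02 in classical monocytes.

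Between Relapsed and Cured libraries no member passed the test in any of the 6 classes with enough cells. In B cells all 10 members were tested, 8 had a lower and 2 a higher value in Relapsed, and the median log2 fold change was -0.39 against 0.00 over all 10203 genes, of which 0.0% were called. In CD8 T cells 8 were tested and 6 were below zero, at a median of -0.37, where 26 of 5691 genes (0.457%) were called. In NK cells it was 6 of 9 at -0.39, in neutrophils 7 of 10 at -0.22, in CD4 T cells 5 of 8 at -0.18 and in non-classical monocytes 4 of 8 at -0.02, with 0.0% of genes called in each of these 4 classes. At an unadjusted p under 0.05 there were 5 members in B cells, 3 in CD8 T cells, 2 in neutrophils, 1 in CD4 T cells and none in NK cells or non-classical monocytes. The share of all genes at that level was 8.64% in B cells, 8.5% in CD8 T cells, 4.59% in neutrophils, 4.08% in CD4 T cells, 7.05% in NK cells and 3.44% in non-classical monocytes. DESeq2 called no member in any class, and of all genes 6 in B cells, 1 in CD8 T cells and 0 in the other 4 classes.

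**Figure D3:**
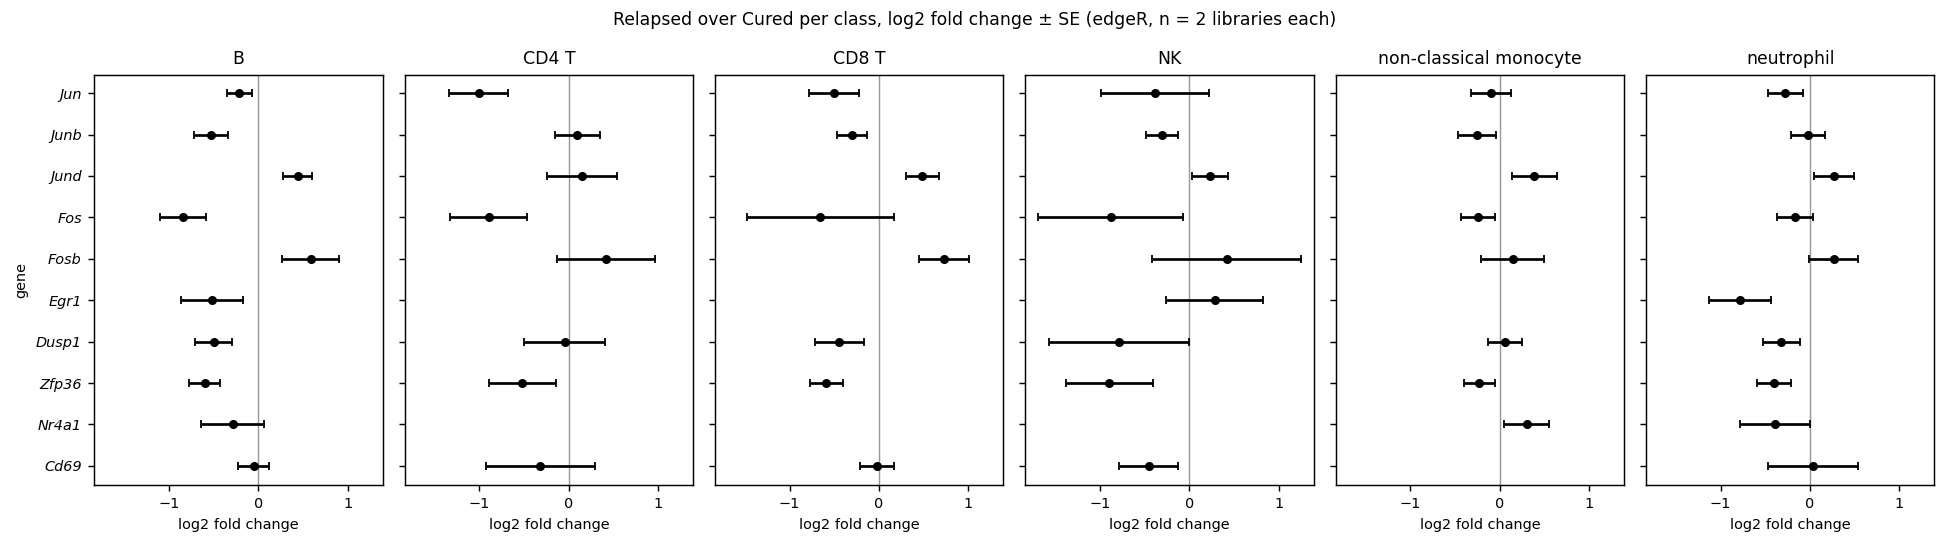
Log2 fold change of Relapsed over Cured for each gene that passed the count filter, in 1 panel per leukocyte class, with bars of 1 standard error from edgeR. Zfp36 lies below 0 in all 6 panels and Jund above 0 in all 6, and no value passed the adjusted test.

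Zfp36 had the smallest p among the members in B cells, at a log2 fold change of -0.60 (SE 0.17, adjusted p = 0.568, edgeR), followed by Fos at -0.84 (SE 0.26, adjusted p = 0.568, edgeR). In CD8 T cells Zfp36 was at -0.59 (SE 0.18, adjusted p = 0.131, edgeR), from 148 and 147 CPM in Relapsed and 277 and 181 CPM in Cured libraries, and Jund was at 0.48 (SE 0.18, adjusted p = 0.304, edgeR). In NK cells Junb was at -0.30 (adjusted p = 0.753, edgeR) and Zfp36 at -0.89 (adjusted p = 0.790, edgeR). The 4 Zfp36 values in NK cells were 271 and 282 CPM in Relapsed and 742 and 309 CPM in Cured libraries, and without Cured replicate 1 the log2 fold change was -0.10. In CD4 T cells Jun was at -1.01 and Fos at -0.89 (adjusted p = 0.961 and 0.985, edgeR), from 23 to 52 cells per library. In non-classical monocytes Jund was at 0.39 and Zfp36 at -0.23 (adjusted p = 0.998 each, edgeR), and in neutrophils Egr1 at -0.78 and Zfp36 at -0.40 (adjusted p = 0.997 each, edgeR).

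Zfp36 was lower in both Relapsed than in both Cured libraries in 6 of 7 classes, all but CD4 T cells. Among all genes tested, such a separation downwards was seen in 23.1% in B cells, 22.2% in CD8 T cells, 20.6% in NK cells, 14.7% in non-classical monocytes and 15% in neutrophils. In CD4 T cells the share was 21.2% and in classical monocytes 14.3%, the last over the 5494 genes of the class contrasts and with the sum of 10 cells in Cured replicate 1. Jun was lower without overlap in B cells, CD4 T cells and classical monocytes, and Jund higher without overlap in 3, beside 22.1% of genes upwards in B cells, 15.4% in CD8 T cells and 17% in non-classical monocytes. The classes come from the same 4 pools, so they are not separate replicates of the group difference.

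Single libraries set much of the order. Cured replicate 1 was the highest library in 7 classes for Zfp36, in 6 for Jun, Junb, Fos and Dusp1, and in 5 for Egr1. All of these counts but that of Fos include classical monocytes, where Cured replicate 1 held 10 cells. Egr1 had 6 UMIs there and 3 in the non-classical monocytes of that library. Over the 7 classes the CPM of Cured replicate 1 was a median of 1.87 times that of Cured replicate 2 for Fos. The same median was 1.77 for Dusp1, 1.48 for Junb and 1.25 for Zfp36. Relapsed replicate 1 was the highest in 7 classes for Jund and in 6 for Fosb, at medians of 1.58 and 2.16 times Relapsed replicate 2.

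**Figure D4:**
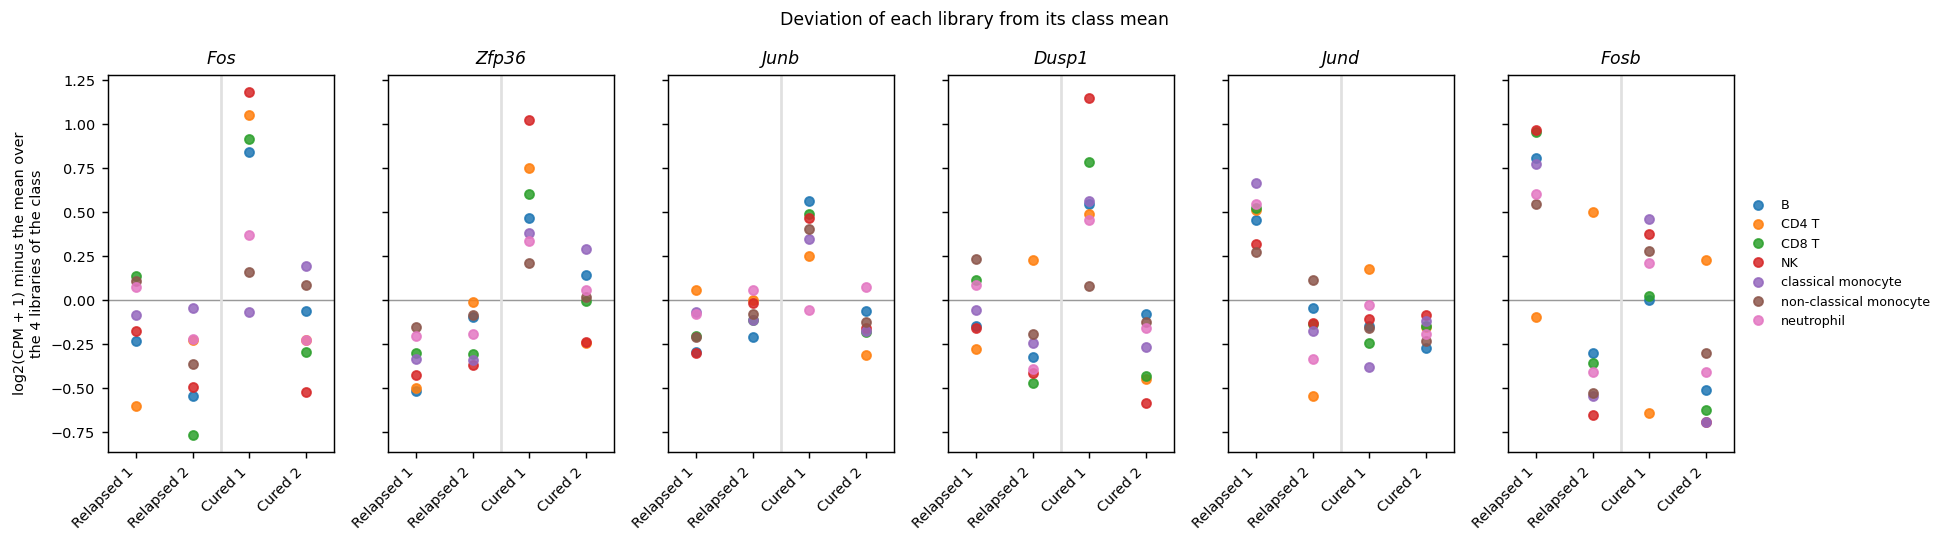
Log2(CPM + 1) of each library (2 Relapsed, then 2 Cured) minus the mean over the 4 libraries, with 1 point per leukocyte class, for Fos, Zfp36, Junb, Dusp1, Jund and Fosb. Cured replicate 1 is highest for Zfp36 in all 7 classes, and Relapsed replicate 1 is highest for Jund in all 7. The point of classical monocytes in Cured replicate 1 comes from 10 cells.

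The calls moved with the library left out. Without Relapsed replicate 2, 3 members were called in B cells (Fosb 1.03, Zfp36 -0.84, Jund 0.66, among 1426 genes called), 2 in CD8 T cells (Fosb 1.29, Jund 0.81, among 206) and 1 in NK cells (Fosb 1.06, among 194). These were 13.6%, 3.04% and 3.65% of the genes tested in those fits. Without Cured replicate 2, Fos was called at -1.23 in B cells, among 7 genes (0.0669%), and at -1.17 in CD8 T cells, as the 1 gene called (0.0176%). In NK cells Zfp36 (-1.43), Fos (-1.53) and Dusp1 (-1.45) were called then, among 4 genes (0.0763%). Without Relapsed replicate 1 or without Cured replicate 1 no member was called in any class. Without Relapsed replicate 1 Fosb was at -0.06 in B cells, -0.08 in CD8 T cells, -0.55 in NK cells, -0.43 in non-classical monocytes and -0.29 in neutrophils. In the same fits Jund was at -0.18 in neutrophils and -0.51 in CD4 T cells, and without Cured replicate 1 Zfp36 was at 0.07 in CD4 T cells and Fos at -0.31 in B cells, 0.16 in CD8 T cells and 0.25 in NK cells. In each such fit the single library left in a group is assumed to vary like the others.

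Other measures moved with the same libraries. The heat shock list summed to 2589 and 2469 CPM in Relapsed and 3098 and 2859.7 CPM in Cured B cells, and it was highest in Cured replicate 1 in every class but neutrophils, where Relapsed replicate 1 was highest at 1123 CPM. None of its members was called between the groups in any class. Median mitochondrial shares in B cells were 2.76% and 2.36% in Relapsed and 2.12% and 2.27% in Cured libraries, and median depths were 1841 and 2024 UMIs against 2231 and 2340.5 UMIs. In B cells the 8 neutrophil markers summed to 78.3 and 31.6 CPM in Relapsed and 61.0 and 63.1 CPM in Cured libraries, and the 5 erythroid markers to 72.3 and 11.3 CPM against 7.76 and 6.13 CPM, so both were highest in Relapsed replicate 1. The part of these measures in the group differences was not tested.

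The difference of the Relapsed over Cured effect between classes was tested for 4 pairs. No member was called between B and CD8 T cells, where 0.0516% of 9689 genes were, between B and NK cells (0.0% of 9900), between CD8 T and NK cells (0.0335% of 5973) or between CD8 and CD4 T cells (0.0% of 4189). At an unadjusted p under 0.05 there was 1 member in the first pair, Nr4a1, and none in the others. In the further lists no gene was called between the groups in any class.

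Within single cells more members were detected in myeloid than in lymphoid classes. At 1000 UMIs per cell, neutrophils carried a mean of 5.42 ± 0.23 members in Relapsed and 5.31 ± 0.16 in Cured libraries (SD, n = 2 each). Only 457 of 1006 neutrophils and 10729 of 11301 B cells reached that depth. Non-classical monocytes carried 4.71 ± 0.32 in Relapsed and 5.01 ± 0.13 in Cured libraries, and classical monocytes 4.23 ± 0.17 against 4.92 ± 0.53. B cells carried 2.73 ± 0.18 in Relapsed and 3.01 ± 0.39 in Cured libraries (two-sided exact permutation p = 0.667). NK cells carried 1.87 ± 0.19 against 2.17 ± 0.71, CD4 T cells 1.60 ± 0.15 against 1.84 ± 0.57 and CD8 T cells 1.23 ± 0.20 against 1.42 ± 0.34. With 2 libraries against 2 the exact permutation test cannot go below 0.33. At 1000 UMIs per cell only classical monocytes reached that limit, with 10 cells in Cured replicate 1. At 500 UMIs per cell CD4 T cells and non-classical monocytes reached it and classical monocytes did not. Unthinned, B cells and classical monocytes reached it. Cells with 5 or more members made up 75.6% to 82.4% of neutrophils and 9.13% to 21.3% of B cells over the 4 libraries. Unthinned, the order of the myeloid classes turned: classical monocytes carried 7.01 ± 0.31 in Relapsed and 7.39 ± 0.15 in Cured libraries, non-classical monocytes 6.36 ± 0.35 against 6.21 ± 0.37 and neutrophils 5.74 ± 0.15 against 5.70 ± 0.02. Unthinned B cells carried 4.06 ± 0.13 members in Relapsed and 4.60 ± 0.32 in Cured libraries, which runs beside the depth gap given above.

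Members were detected in the same B cells slightly more often than their separate shares give. Co-detection is the share of cells with both genes divided by the product of their 2 shares within a library, so that 1 means no association. Over 37 pairs with enough cells in B cells the median ratio was 1.07, and 26 pairs were above 1 in all 4 libraries and none below 1 in all 4. The highest was Fosb with Dusp1, at 1.22 and 1.48 in Relapsed and 1.25 and 1.30 in Cured libraries, where 3.41% of cells carried both against a product of 2.65%. The lowest was Zfp36 with Cd69, at 0.94 and 1.04 in Relapsed and 1.04 and 1.04 in Cured libraries. Taken as library medians, the member pairs in B cells were at 1.09 and 1.09 in Relapsed and 1.10 and 1.07 in Cured libraries. As a comparison, pairs of the heat shock list had library medians of 1.03 and 1.01 in Relapsed and 1.02 and 1.02 in Cured libraries. Members paired with heat shock genes had 1.00 and 1.00 against 1.01 and 0.99. Unthinned, the 2 lists lay closer together. Member pairs were then at 1.095 and 1.07 in Relapsed and 1.06 and 1.07 in Cured libraries. Pairs of the heat shock list were then at 1.06 and 1.08 against 1.05 and 1.07.

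In NK cells the pairs ranged more widely. Jun with Fos reached 1.44 and 1.39 in Relapsed and 1.28 and 1.36 in Cured libraries, and 6 of 13 pairs were above 1 in all 4 libraries. Jund with Dusp1 was below 1 in all 4, at 0.67 and 0.83 against 0.98 and 0.95. All 5 CD8 T cell pairs with enough cells hold Junb, and 3 were above 1 throughout: Junb with Fos at 1.38 and 1.22 in Relapsed and 1.21 and 1.39 in Cured libraries, with Zfp36 and with Cd69. In non-classical monocytes 12 of 23 pairs were above 1 throughout. Jun with Dusp1 led, at 1.15 and 1.17 in Relapsed and 1.37 and 1.11 in Cured libraries. The odds ratio of that pair had a geometric mean of 4.73 over the libraries, with a small constant added to each count of cells. In neutrophils, where most members are in most cells, 3 of 21 pairs were above 1 throughout and the median ratio was 1.02, which a high share of positive cells holds close to 1. The median odds ratio, which has no such ceiling, was 1.45 in neutrophils and in NK cells, 1.25 in B cells, 1.44 in CD8 T cells, 1.60 in classical and 1.74 in non-classical monocytes. Classical monocytes had 2 of 8, from 10 to 31 cells per library, and CD4 T cells had too few cells. Cells that share a gate still differ in subtype and RNA content, and these ratios carry no test.

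**Figure D5:**
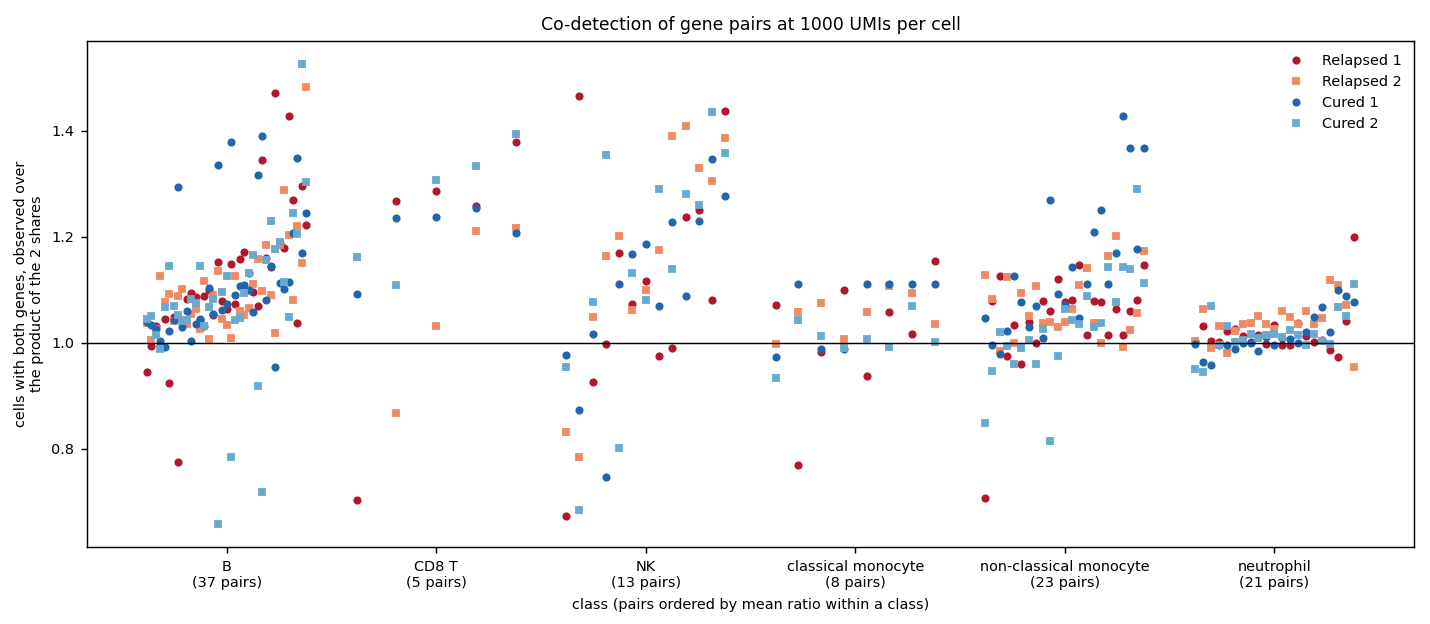
Ratio of the observed share of cells with both genes to the product of their shares, at 1000 UMIs per cell, by leukocyte class, with 1 point per gene pair and library, pairs ordered by their mean ratio and a line at 1 for no association. Fosb with Dusp1 in B cells averages 1.31 and Jun with Fos in NK cells 1.36, while the median over neutrophil pairs is 1.02.

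The profiles of the members over the 27 class sums (4 libraries, 7 classes, 1 sum left out) were also set against 8318 genes with at least 200 UMIs, as Pearson correlations of log2(CPM + 1). Fos and Dusp1 had 0.97 and Fos and Zfp36 0.97 between them, and Cd69 was negative with every other member, down to -0.81 with Nr4a1. The most alike genes outside the set were Srgn for Jund (0.96), Msrb1 for Dusp1 (0.97), Slc15a3 for Fos (0.93), Ypel3 for Junb (0.94), Samsn1 for Nr4a1 (0.93), Atp6v0b for Jun (0.91), Mcl1 for Fosb (0.89), Rsrp1 for Egr1 (0.87) and Cmah for Cd69 (0.84). The sums share libraries, depth and cell classes, so these values describe the class pattern alone.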

How the data were processed

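The deposited values are raw UMI counts per gene and cell barcode for 4 libraries, which the authors made with Cell Ranger 3.1.0 against mm10, per the submitters' processing notes. The annotation release and the strand rule were not given in the sources used here. CPM values were computed here.

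Barcodes with fewer than 200 genes or more than 10% mitochondrial UMIs were left out. Cells were put into a class by UMIs of at least 2 markers of its lineage, none of them a member. T cells were split by Cd4 or Cd40lg against Cd8a or Cd8b1, and monocytes by at least 2 subset markers. No doublet caller was run. Instead 471 cells with at least 3 markers of a second lineage, or a tie, were left out as mixed, and 131 B cells with a Cdkn2a UMI were set aside. UMIs were summed per library and class with at least 20 cells. The sums went into edgeR 4.0.16 on R 4.3.3, with filterByExpr, TMM scaling and robust quasi-likelihood fits, and Benjamini-Hochberg adjustment over all genes of the fit. DESeq2 1.42.0 was an alternative. In the class contrasts each class was set against the unweighted mean of the others with the library as a term. For detection each cell was thinned to 1000 UMIs (seed 7) on Python 3.11.15 with numpy 2.4.6, and shallower cells were left out. Exact binomial intervals (95%, Clopper-Pearson, scipy 1.17.1) cover counting error only. Gene positions are from GENCODE M21 on GRCm38.

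Every adjusted p printed is from edgeR. The members, the gene lists, the markers and the tests were chosen with earlier results of these data known. Of the members, all are described in every class, and a Relapsed over Cured fold change with its test is printed for each that passed in a class, or for the 2 with the smallest p where fewer passed. Of each list up to 4 called genes per direction by smallest p are named, and the most alike genes are those with the highest correlation of log2(CPM + 1). Only the test between groups was tried on simulated counts, for B cells, CD8 T cells and neutrophils, with the same spread set for every gene. The class contrasts and the differences of the effect between classes were not simulated. No label states that equal replicate numbers pair the libraries. The correlation of same-numbered deviations was between -0.065 and 0.056 over the 6 classes, which does not settle whether they do. Alternatives covered the count filter, the scaling, each library left out, the gates, the mitochondrial limit and the thinning. Scaling by totals alone, in both kinds of comparison, and by cell number in the class contrasts was added after seeing the data. Some genes that these rules would name are not reported here.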

Additional observations from a re-analysis of the deposited data

How the results depend on the processing

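Of 938 alternative values over 78 results, 853 were labelled the same. Fold changes were judged by direction and side of the threshold, whatever their size, and counts and per-cell values by size alone. Depth limits Egr1, with 604 UMIs in the 7 classes, and CD4 T cells and classical monocytes, with 149 and 93 cells. Between Relapsed and Cured, 26 genes were called in CD8 T cells and 0 in the other 5 classes, and no member. Where a value moved, the cause was not tested. Leaving out 1 library in turn gave from 2 to 1426 genes called between Relapsed and Cured in B cells, 0 to 7 in CD4 T cells, 1 to 206 in CD8 T cells, 0 to 194 in NK cells, 0 to 9 in non-classical monocytes and 0 to 1 in neutrophils, and 0 to 3 members in B cells, 0 to 2 in CD8 T cells and 0 to 3 in NK cells. It gave 2 to 4 members higher in B cells against the other classes, 0 to 1 in CD4 T cells, 0 to 1 in NK cells and 4 to 7 in non-classical monocytes, and 1 to 2 lower in classical monocytes. Junb in NK cells lay between -0.62 and 0.070 log2, the positive value without Cured replicate 1. A single library left in a group is assumed to vary like the others. Without the count filter 183 genes were called between the groups in B cells (3 of them members: Zfp36, Junb and Fos), 4 in CD4 T cells, 8 in NK cells (1 member, Zfp36), 3 in neutrophils, and 5939 between B cells and the other classes. DESeq2 called 6 genes in B cells and 1 in CD8 T cells. Sums scaled by their totals gave 2 genes in CD8 T cells, 1 member higher in NK cells and 1 lower in classical monocytes. Thinning to 1000 UMIs gave 1 gene in CD8 T cells between the groups, and against the other classes 1957 genes in B cells, 627 in CD4 T, 1288 in CD8 T, 1218 in NK cells, 633 in classical and 977 in non-classical monocytes and 1973 in neutrophils, with 5 members higher in B cells, 0 in CD4 T cells and 5 in classical monocytes, where 1 was lower. Per cell, 7 members were lower in B cells, 0 in classical monocytes and 1 in neutrophils, and 3719 genes were called in classical monocytes. Gates of at least 3 markers gave 1 gene between the groups in CD4 T cells and 0 members higher there against the other classes. With mixed cells kept, 2 genes were called in CD4 T cells, 1 in NK cells, 5 in non-classical monocytes and 1 in neutrophils. The mean of the library medians of co-detection was 1.09 in B cells at 1000 UMIs, 1.10 at 500 UMIs and 1.07 unthinned. It was 1.24 in CD8 T cells and 1.15 unthinned, 1.15 in NK cells with 1.18 at 500 UMIs and 1.19 unthinned, and 1.07 in classical monocytes and 1.00 unthinned. Members per non-classical monocyte, Relapsed minus Cured, were at -0.29 thinned and 0.14 unthinned.

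No label states that the replicate numbers pair the libraries. With the replicate number as a block, 155 genes were called between Relapsed and Cured in B cells (3 of them members: Zfp36, Junb and Fos), 10 in NK cells and 3 in neutrophils, and no member in the other classes.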
